A study of Homo sapiens with 13 samples.

Results

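ChIP-seq, the sequencing of DNA pulled down with an antibody from cross-linked chromatin, was used to map JUN in MDA-MB-231, an established human cell line from a basal-like breast cancer. Cells were grown in DMEM:F12 medium with serum, and no treatment, genetic change or time course is given in the labels. JUN replicates 1 and 2 were made with 1 lot of a JUN antibody from BD Bioscience and were compared with libraries 3 and 5 of mouse IgG, which measure what a non-specific mouse antibody pulls down. The sites described here are every row of the resulting list, 24554 peaks of the 50467 in the 4 lists of the series. The YAP (7709 peaks), TAZ (9798) and TEAD4 (8406) lists of the same cells serve as background. Nothing in the labels says whether the replicates came from separate cultures. The labels of both replicates name the same JUN list, but its peak names bear a replicate tag of their own, and whether both entered it cannot be settled from the files. With 1 list, no value below has a spread between samples, and no test between samples could be made. Intervals are 95% exact binomial (Clopper-Pearson) for shares and exact order-statistic intervals for medians, and they cover counting error only. Read depth is unknown here. All positions are on hg19, and sites are named by position because no gene annotation or sequence of that build was used here.

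JUN is a subunit of AP-1, a dimeric transcription factor of the basic leucine zipper class that JUN forms with itself or with FOS and ATF family proteins. AP-1 binds a short palindromic DNA element, mostly at enhancers far from promoters, and is known for rapid responses to growth factors, stress and oncogenic signalling. In basal-like breast cancer cells it is known for genes of migration, invasion and proliferation. Enhancers often lie in groups along a gene and its surroundings, and such groups have been called clustered or super-enhancers.

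Each JUN peak comes with a width, a summit, the fold enrichment over IgG and the −log10 of its p-value, both as the authors gave them. Fold enrichment ran from 4.44 to 39.9, with a median of 11.7 and with 10% of peaks under 8.04 and 10% over 19.2. The −log10 p ran from 54.4 to 449, with a median of 108. Peaks were 296 to 4664 bp wide, with a median of 730 bp, and together covered 20.6 Mb. The middle 50% of widths lay between 568 and 985 bp. No JUN peak overlapped another.

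JUN peaks lay on all autosomes and on chromosome X, at 8.40 per Mb, where the length of a chromosome is the span covered by the 4 lists. Chromosome 17 was the densest with 1048 peaks or 12.9 per Mb, followed by chromosome 22 (12.4), chromosome 19 (11.7) and chromosome 20 (11.5). Chromosome X was the sparsest with 408 peaks or 2.69 per Mb, and chromosome 4 came next with 6.65. Divided by the density of the whole list, chromosome 17 stood at 1.54 and chromosome X at 0.32. The median distance between neighbouring summits was 26.0 kb on chromosome 17, 24.1 kb on chromosome 20 and 83.3 kb on chromosome X. The other lists placed chromosome X equally low, at 0.29 for YAP, 0.29 for TAZ and 0.28 for TEAD4. They placed chromosome 17 at 1.42, 1.42 and 1.50. Chromosome 22 was the one on which the lists lay furthest apart among the dense chromosomes, at 1.48 for JUN against 1.07 for YAP, 1.16 for TAZ and 0.94 for TEAD4.

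**Figure D1:**
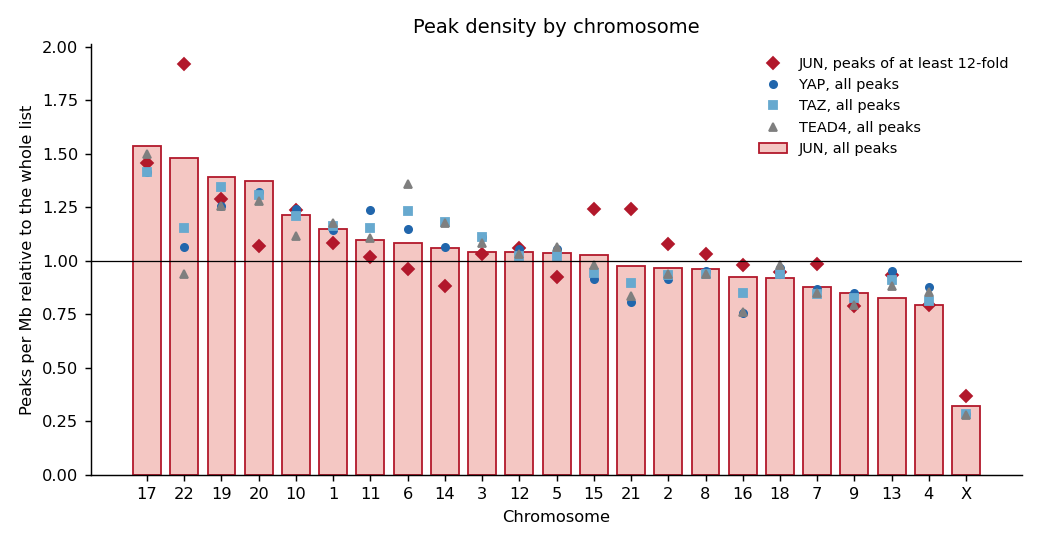
Peaks per Mb on each chromosome divided by the peaks per Mb of the whole list (vertical axis, no unit), with chromosomes ordered by JUN density (horizontal axis). Bars are all JUN peaks, diamonds JUN peaks of at least 12-fold enrichment, and circles, squares and triangles all YAP, TAZ and TEAD4 peaks. The line at 1 is the whole list. JUN runs from 1.54 on chromosome 17 to 0.32 on chromosome X, and on chromosome 20 it moves from 1.37 to 1.07 when only peaks of at least 12-fold are counted.

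The listed peaks of the dense chromosomes differed in enrichment and width. Chromosome 22 had the highest median enrichment, 13.5-fold, and 254 of its 411 peaks reached 12-fold. Counting only peaks of at least 12-fold, a limit chosen after seeing the data, raised its relative density to 1.92. Chromosome 20 had the lowest median enrichment, 10.5-fold, and its relative density among peaks of at least 12-fold was 1.07. Chromosome 17 stayed at 1.46 and chromosome X at 0.37 by that count. Among peaks of 10.7 to 12.9-fold, the median −log10 p was 91.9 on chromosome 22 and 146 on chromosome 20. Where it is higher at like enrichment, weaker peaks can be listed. Its part in the median enrichments was not tested. Peaks were widest at the median on chromosome 19 (869 bp) and chromosome 17 (846.5 bp) and narrowest on chromosome X (637.5 bp). Of the peaks of chromosome 19, 19.0% (16.1 to 22.1) belonged to the widest 10% of the list, as did 16.1% (13.9 to 18.5) of those of chromosome 17 and 5.30% (3.72 to 7.30) of those of chromosome 13.

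Along the chromosomes the peaks were spread unevenly. Of the 2944 windows of 1 Mb that the lists span, 378 (12.8%) held no JUN peak, the median window held 7, and 10% held 19 or more. The 604 fullest windows, 20.5% of all, contained 50% of the peaks. The 289 windows with at least 20 peaks made up 9.82% of the windows and held 29.2% of the peaks. The background lists concentrated to a like degree, with 50% of peaks in 17.3% of windows for YAP, 17.9% for TAZ and 17.1% for TEAD4. With each list at its 7709 strongest peaks by p, the length of the shortest list, the figure was 15.2% for JUN. It was 17.3% for YAP, 16.9% for TAZ and 16.8% for TEAD4. This cut leaves the YAP list whole, and −log10 p at like enrichment differed between segments, as given below. The part of the cut in the lower JUN figure was not tested.

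The 7 fullest windows of 1 Mb held 36 to 39 JUN peaks. Chromosome 7 (73000001 to 74000000) held 39 with a median enrichment of 14.9-fold, alongside 4 YAP, 11 TAZ and 5 TEAD4 peaks. Chromosome 12 (76000001 to 77000000) also held 39, but with a median of 10.1-fold and only 12 peaks of at least 12-fold, against 25 in the chromosome 7 window. Chromosome 5 (172000001 to 173000000) held 38. Windows with 37 were found on chromosome 2 (235000001 to 236000000 and 47000001 to 48000000) and on chromosome 8 (29000001 to 30000000). Ranked by peaks of at least 12-fold, the window on chromosome 7 came first with 25, and a window on chromosome 22 (27000001 to 28000000) with 23 joined the first 5.

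At the other end were 332 distances of over 1 Mb between neighbouring summits, 101 of over 2 Mb and 11 of over 5 Mb. The longest interval without a listed JUN peak was 32.6 Mb on chromosome 9 (38683231 to 71304892). It was followed by 22.7 Mb on chromosome 1 (121330037 to 144015794), 14.7 Mb on chromosome 16 (31892230 to 46607355), 9.32 Mb on chromosome 7 (56130527 to 65449159) and 8.26 Mb on chromosome 11 (48129465 to 56392051). These intervals span the centromeres of their chromosomes. None of them held a YAP, TAZ or TEAD4 peak. The numbers in the JUN peak names skip 31 values across the chromosome 7 interval and 1 to 5 across the others, which would be unlisted candidates if the numbers count all candidates.

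Neighbouring JUN summits lay a median of 36.2 kb apart (35.2 to 37.4; 24531 distances). The closest 10% were under 3.32 kb and the farthest 10% over 275 kb. Distances of 1 kb or less made up 0.95%, those up to 5 kb 14.6%, those up to 12500 bp 28.5% and those up to 50 kb 57.3%. The closest pair lay on chromosome 6 with summits 488 bp apart, at 157269915 to 157270412 with 11.4-fold and at 157270464 to 157270940 with 8.52-fold.

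List length bears on spacing, since a longer list fills the same genome. With each list at 7709 peaks, the median distance was 111 kb (106 to 116) for JUN, 132 kb (124 to 140) for YAP, 124 kb (117 to 131) for TAZ and 128 kb (121 to 135) for TEAD4. Pairs within 12500 bp were 14.6% for JUN, 15.1% for YAP, 16.0% for TAZ and 15.2% for TEAD4. At this length very close pairs were fewer in the JUN list. Distances of at most 1 kb made up 0.20% for JUN, 1.01% for YAP, 1.04% for TAZ and 1.30% for TEAD4. In the lists as deposited they made up 0.95%, 1.01%, 1.28% and 1.47%. Distances of at most 2 kb as deposited made up 5.31% for JUN, 3.60% for YAP, 4.25% for TAZ and 3.94% for TEAD4. With each list at 7709 peaks they made up 2.03% for JUN, 3.60% for YAP, 3.70% for TAZ and 3.66% for TEAD4. The cut to 7709 peaks takes away the weaker JUN peaks, while the YAP list stays whole. JUN peaks are wider, and 2 summits inside 1 listed peak are not counted as a pair. Whether width or the cut accounts for the lower JUN shares at equal length was not tested.

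**Figure D2:**
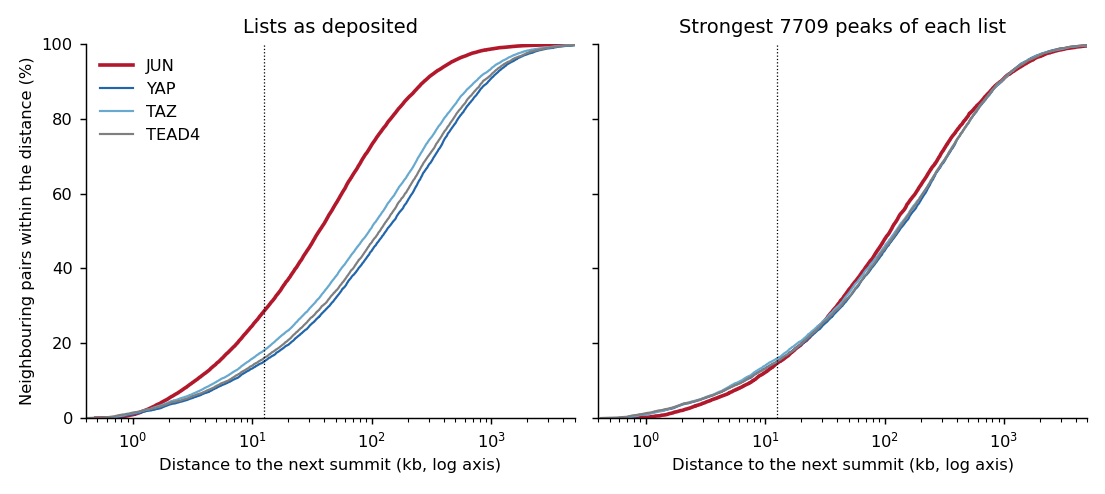
Cumulative share of neighbouring summit pairs (vertical axis, percent) at or under a distance (horizontal axis, kb, log scale) for the 4 lists as deposited (left) and for the 7709 strongest peaks of each by p (right). The dotted line is at 12500 bp. As deposited, 28.5% of JUN pairs lie within it, and at equal length 14.6%, close to the 15.1% of YAP.

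Summits at most 12500 bp apart were joined, a distance commonly used to stitch enhancers. This gave 17551 groups: 13073 single peaks, 2984 pairs and 1494 clusters of at least 3. The clusters held 5513 peaks, 22.5% of the list (21.9 to 23.0), and spanned 22.1 Mb in all, with a median length of 13.5 kb. JUN peaks covered a median of 22.3% of a cluster. Clusters lay on all 23 chromosomes, and the share of peaks inside them was 30.0% on chromosome 20, 29.9% on chromosome 22, 13.4% on chromosome 4 and 11.8% on chromosome X. At equal list length the share in clusters was 7.38% (6.81 to 7.99) for JUN, 7.39% for YAP, 8.33% for TAZ and 7.73% for TEAD4.

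Clustered JUN peaks were barely stronger than single ones. The median enrichment was 11.7-fold (11.6 to 11.8) for single peaks, 12.1-fold (11.8 to 12.3) in clusters of 3 and 11.9-fold (11.5 to 12.2) in clusters of 6 or more. The median −log10 p moved further, from 103 for single peaks to 126 in clusters of 6 or more, and so did the median width, from 690 to 898 bp. Strong and weak peaks stood side by side. In clusters of 6 or more, the strongest peak had a median of 19.1-fold and the weakest 8.11-fold, a ratio of 2.48 within the cluster. Neighbours resembled each other little in enrichment at any distance. Spearman's rho across pairs was 0.10 for the 1303 pairs at most 2 kb apart, 0.06 for the 3425 pairs over 5 kb and up to 12500 bp apart and -0.01 for the 332 pairs over 1 Mb. All these pairs come from 1 list and share its libraries.

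YAP and TAZ, the Hippo pathway coactivators that reach DNA through TEAD proteins, were more often found at clustered JUN peaks. A YAP or TAZ peak overlapped 27.4% of single JUN peaks (26.6 to 28.2), 32.8% of those in pairs, 36.5% of those in clusters of 3 and 40.5% of those in clusters of 6 or more (37.0 to 44.0). With a YAP or TAZ summit required within 200 bp of the JUN summit, the shares were 26.0% for single peaks and 36.8% (33.4 to 40.3) for clusters of 6 or more. Among the 113 clusters of that size, 98.2% held at least 1 JUN peak with YAP or TAZ, a share to which the number of peaks itself contributes. By the distance to the nearest other JUN summit, the share was 36.3% (34.3 to 38.2) in the closest 10% of peaks and 24.3% (22.7 to 26.1) in the most isolated 10%, and with summits within 200 bp 34.2% and 23.7%. The median enrichment of these sets was nearly equal, 11.5-fold in both, but the median width was 744 and 624 bp and the median −log10 p 109 and 95.2. The part of width and −log10 p in the difference was not tested. TEAD4 was called against mouse IgG 3 as well, so its presence is given only at named loci and no share of the JUN list with TEAD4 is given.

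The largest clusters had 13 peaks each. The first, on chromosome 5 (172184963 to 172236037), spread them over 49.1 kb, with enrichments of 7.24 to 19.1 and a median of 10.8. Its most enriched peak was the eleventh (172226947 to 172228983, 19.1-fold), which lay 43.0 kb after the first summit. The first peak itself had 17.3-fold, and a peak of 16.9-fold stood 36.0 kb after it. Of the 13 peaks, 3 overlapped a YAP or TAZ peak. The second, on chromosome 14 (61991077 to 62061782), was the longest of all clusters at 69.1 kb. It held the third widest peak of the list (62027969 to 62032342, 4374 bp, 20.6-fold), and 6 of its 13 peaks overlapped YAP or TAZ. The third, on chromosome 6 (43977640 to 44040176), had 12 peaks with a median −log10 p of 184, at a median enrichment of 12.2-fold.

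The next clusters had 11 peaks. That on chromosome 12 (52579772 to 52641585) had the highest median enrichment of the 10 largest, 15.0-fold, and its weakest peak still reached 10.5-fold. That on chromosome 1 (16465076 to 16514954) had the widest range, from 8.19 to 27.5-fold, and the most peaks with YAP or TAZ, 7 of 11. Clusters of 10 were found on chromosome 8 (141997604 to 142054104), chromosome 5 (150417285 to 150474567), chromosome 9 (37925961 to 37975239) and chromosome 14 (50429305 to 50491397). The last of these was the weakest of the 10, with enrichments of 5.68 to 13.9. The tenth, with 9 peaks, lay on chromosome 1 (221975449 to 222019858), and TAZ was found at 4 of its peaks and YAP at none.

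**Figure D3:**
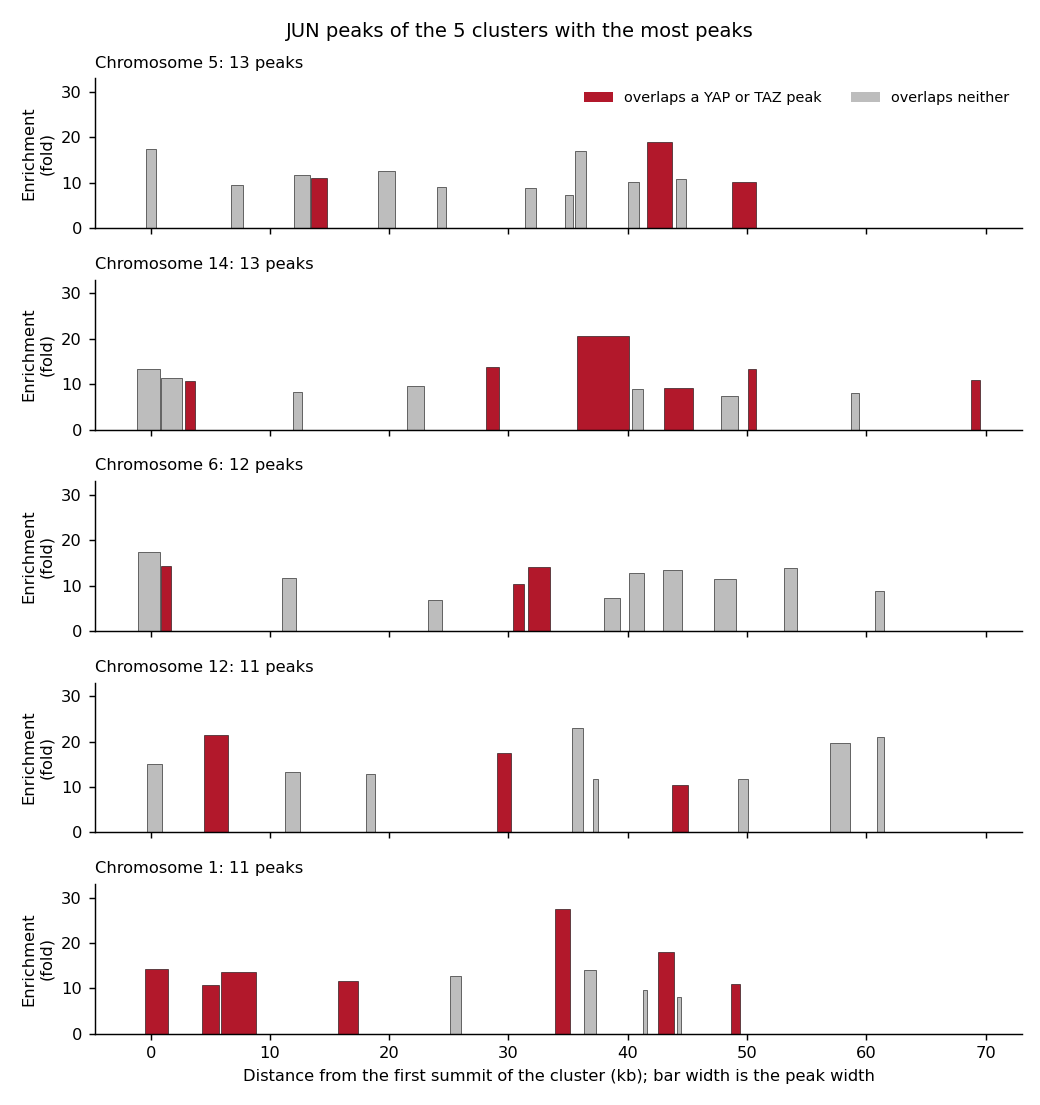
The 5 JUN clusters with the most peaks, 1 panel each. The horizontal axis is the distance from the first summit in kb, the height of a bar the fold enrichment over IgG, and its width the width of the peak. Red peaks overlap a YAP or TAZ peak and grey ones overlap neither. Enrichment varies between neighbours within each cluster, from 7.24 to 19.1 in the first panel and from 8.19 to 27.5 in the last, and the wide red bar in the second panel is the 4374-bp peak on chromosome 14.

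On a longer scale no stretch of at least 500 kb had all its neighbouring JUN summits within 50 kb. At that linkage the longest run was 428 kb, 29 runs exceeded 250 kb, and the run with the most peaks held 23, on chromosome 14 (50329463 to 50583561). Next came runs of 22 peaks on chromosome 10 (112065750 to 112296727) and chromosome 11 (35051357 to 35413172). The run of 19 peaks on chromosome 15 (67303119 to 67471534) was the most tightly packed of the first 10, at 113 per Mb, with a median of 16.5-fold. The run with the most peaks on chromosome 14 had a median of 9.14-fold, and 4 of its 23 peaks reached 12-fold.

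With a linkage of 100 kb, chosen after that count was seen, there were 100 stretches of at least 500 kb on 20 chromosomes. They held 2494 peaks (10.2%) in 67.8 Mb, at a median of 36.6 peaks per Mb. Only 9 of them exceeded 1 Mb. The longest and fullest lay on chromosome 20 (48178403 to 49812692), with 58 peaks over 1.63 Mb, 5 clusters of at least 3, and 19 YAP, 21 TAZ and 24 TEAD4 peaks inside it. The second lay on chromosome 7 (72978618 to 74075664), with 43 JUN peaks but only 5 YAP, 13 TAZ and 5 TEAD4 peaks. Stretches of 42 peaks were found next, on chromosome 2 (27804993 to 28940682), chromosome 20 (56192975 to 57227733) and chromosome 6 (41545198 to 42537271). These differed in strength: the median enrichment was 13.9-fold on chromosome 7, 12.4-fold on chromosome 2, 9.78-fold in the second chromosome 20 stretch and 7.91-fold on chromosome 6. In the chromosome 6 stretch 4 of 42 peaks reached 12-fold, against 26 of 43 on chromosome 7. The remaining 5 of the 10 fullest held 36 to 39 peaks, on chromosomes 11, 8, 6, 16 and 7. That on chromosome 11 (69047596 to 70091181) had 39 JUN, 22 YAP, 25 TAZ and 22 TEAD4 peaks.

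Windows of 100 kb held at most 13 JUN peaks, on chromosome 1 (86000001 to 86100000), where the median was 8.70-fold and a single peak reached 24.3-fold. Windows of 12 were found on chromosome 15 (67300001 to 67400000, median 17.8-fold) and chromosome 22 (36700001 to 36800000, 13.0-fold). A further 12 windows held 11. By summed enrichment the first of these lay on chromosome 22 (27500001 to 27600000) and chromosome 10 (3800001 to 3900000).

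Enrichment and significance parted in some of these dense places. Across the list both ranked peaks alike (Spearman's rho 0.88, 24554 peaks, both computed from the same reads). To compare them at like enrichment, the middle 20% of peaks by enrichment (10.7 to 12.9-fold, 4910 peaks) were taken, and the median −log10 p was 106. In bins of 10 Mb with at least 10 such peaks (231 bins), a scale chosen after seeing the data, it ran from 73.5 to 180. The highest values were on chromosome 6 (30000001 to 40000000) at 180, chromosome 19 (10000001 to 20000000) at 174, chromosome 6 (40000001 to 50000000) at 169 and chromosome 20 (30000001 to 40000000) at 157. The lowest, 73.5, was on chromosome 4 (60000001 to 70000000). Bin medians gathered at 2 levels, with 58 bins between 80 and 90, 63 between 110 and 120, and 25 between 100 and 110. By chromosome the value was 146 (140 to 152) on chromosome 20 and 83.6 (80.2 to 87.0) on chromosome X.

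The YAP and TAZ lists, called against rabbit IgG, were also high on chromosome 20 and low on chromosome X at their own middle enrichment. On chromosome 20 the median −log10 p was 53.1 for YAP and 52.6 for TAZ, and on chromosome X 29.9 and 29.1, against 40.3 and 39.5 over their lists. In the highest JUN bin, on chromosome 6, it was 60.6 for YAP (8 peaks) and 60.2 for TAZ (9 peaks). The lists did not move together in every bin. On chromosome 3 (190000001 to 200000000) JUN stood at 135, while TAZ at 34.7 (5 peaks) lay below the 39.5 of its list. In that bin YAP at 44.9 (13 peaks) lay above the 40.3 of its list, and TEAD4 at 52.1 (9 peaks) above 46.0. TEAD4 stood at 56.6 on chromosome 20 and 39.1 on chromosome X. At a fixed enrichment, −log10 p grows with the number of reads at a site. The DNA copy number of these segments was not measured here, and its part in these values was not tested.

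Peaks in the high bins were more numerous and weaker. No listed peak had a −log10 p under 54.4, so where it is higher at like enrichment, weaker peaks can be listed. The counts and shares below are therefore not separate from the −log10 p of a bin. The part of this lower limit in them was not tested. In the third of bins with the lowest −log10 p at middle enrichment, the median bin held 76 JUN peaks and 56.0% of peaks reached 12-fold. In the third with the highest, the median bin held 112 and 42.5% reached 12-fold. The median number of peaks of at least 12-fold differed less, 42 against 47 per bin. Over the 231 bins, Spearman's rho with −log10 p at middle enrichment was 0.47 for the number of listed peaks. It was 0.18 for the number of at least 12-fold. On chromosome 6 between 30000001 and 40000000, 38 of 188 peaks (20.2%) reached 12-fold, against 47.7% of the list. Of the 110 listed peaks under 6-fold, chromosome 6 held 29 (26.4%) and chromosome 19 held 20 (18.2%), although these chromosomes held 6.32% and 2.79% of the list. The dense stretch on chromosome 6 with a median of 7.91-fold lies in one of these bins, while the bin around the strong stretch on chromosome 7 stood at 86.4.

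**Figure D4:**
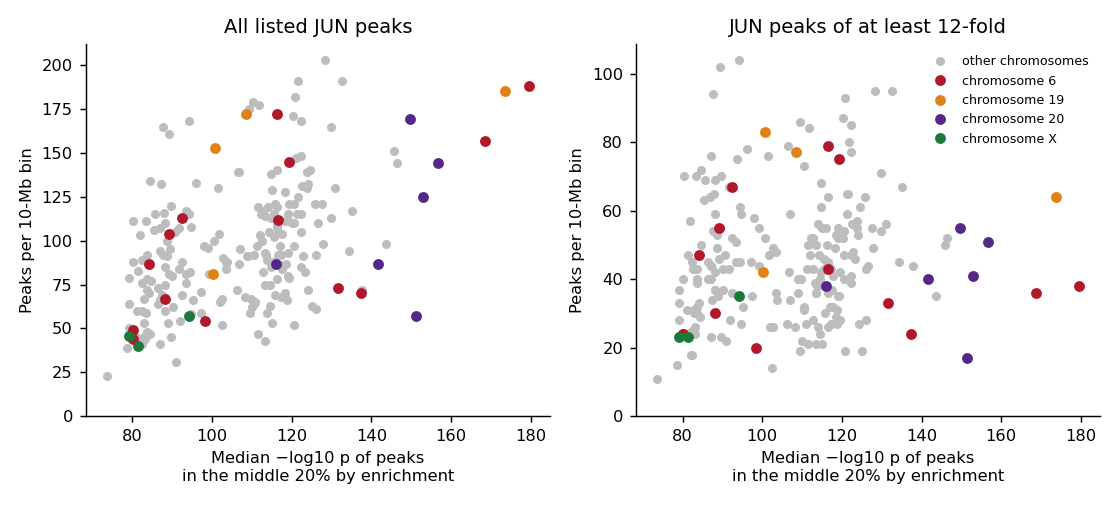
Each point is a bin of 10 Mb. The horizontal axis is the median −log10 p of its JUN peaks in the middle 20% by enrichment, and the vertical axis the number of JUN peaks in the bin, all listed peaks on the left and peaks of at least 12-fold on the right. Colours mark chromosomes 6, 19, 20 and X. Bins past 160 lie on chromosomes 6 and 19 and hold 157 to 188 listed peaks, but only 36 to 64 of at least 12-fold.

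Wide and narrow JUN peaks differed in several ways. The widest 10% (2456 peaks, 1322 to 4664 bp, median 1621 bp) had a median enrichment of 14.1-fold (13.9 to 14.5), and the narrowest 10% (2455 peaks, 296 to 475 bp, median 438 bp) 9.61-fold (9.52 to 9.70). Their median −log10 p was 168 and 69.7. The widest 10% made up 20.9% of the covered bases. Width and enrichment rose together only loosely (Spearman's rho 0.33, and 0.47 for width and −log10 p, across peaks of 1 list). Of the widest 10%, 505 peaks (20.6%) were also in the strongest 10% and 181 (7.37%) in the weakest, whereas 5 of the narrowest (0.20%) were among the strongest. Caller and reads are the same for width, enrichment and p, so these are not separate measurements.

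Wide peaks lay closer to other JUN peaks and to YAP and TAZ. The nearest other summit was at a median of 9.04 kb for the widest and 26.8 kb for the narrowest 10%, and 31.9% (30.1 to 33.8) against 13.1% (11.8 to 14.5) were in clusters of at least 3. YAP or TAZ overlapped 46.4% (44.4 to 48.4) of the widest and 13.8% (12.47 to 15.24) of the narrowest. A longer interval overlaps more by its length alone. Within 200 bp of the JUN summit the shares were 38.3% (36.4 to 40.3) and 13.8%. At like enrichment, in the middle 20% of peaks, a YAP or TAZ summit lay within 200 bp at 29.1% (25.1 to 33.4) of the widest and 13.0% (10.2 to 16.3) of the narrowest 10%, while the median enrichment of these sets was 11.8 and 11.6-fold and the median −log10 p 130 and 85.2.

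The summit of a narrow peak lay near its middle, and that of a wide peak often did not. The median offset of the summit from the centre was 3.29% of the width in the narrowest and 17.8% in the widest 10%, and in 28.5% of the widest it fell in the outer part, over 25% of the width from the centre. None of the narrowest peaks was of that kind. At least 2 peaks of the YAP list, or 2 of the TAZ list, fell on 1 JUN peak in 102 (4.15%) of the widest 10% and in 0 of the narrowest.

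**Figure D5:**
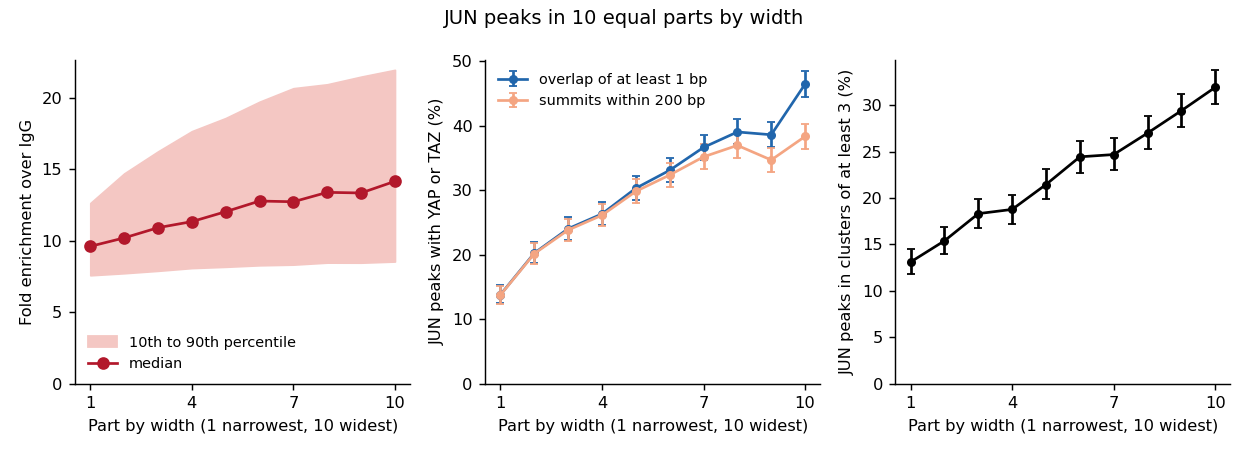
JUN peaks divided into 10 equal parts by width (horizontal axis, 1 narrowest, 10 widest). Left, fold enrichment, median and range from the 10th to the 90th percentile. Middle, percent of peaks with a YAP or TAZ peak by overlap or with a summit within 200 bp. Right, percent of peaks in clusters of at least 3. Bars are 95% binomial intervals. From the narrowest to the widest part the median goes from 9.61 to 14.1-fold and the share in clusters from 13.1% to 31.9%.

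Only 489 peaks (1.99%) exceeded 2000 bp and 49 exceeded 3000 bp. The widest of all, on chromosome 1 (36814750 to 36819413, 4664 bp), had 14.5-fold enrichment and held 2 YAP, 1 TAZ and 2 TEAD4 peaks. The second (chromosome 11, 118780927 to 118785444) held 1 YAP, 2 TAZ and 2 TEAD4 peaks, and the third, in the chromosome 14 cluster described above, 2 of each. The fourth and the fifth were found on chromosome 17 (7744592 to 7748809, 17.7-fold) and chromosome 20 (10651924 to 10656090, 17.2-fold, summit 405 bp from its start) and overlapped no peak of any other list. Neither did the seventh, on chromosome 8 (126441216 to 126445346), the most enriched of the 10 at 22.0-fold. The sixth and the ninth were both on chromosome 12 (124874291 to 124878442 and 120667063 to 120671110). The eighth and the tenth were wide and weak: chromosome 6 (42418547 to 42422643, 4097 bp) at 7.23-fold and chromosome 19 (18526483 to 18530473, 3991 bp) at 6.24-fold, in the bins of high −log10 p given above. In all, 5 of the 10 widest overlapped YAP or TAZ, against 46.4% of the widest 10% and 30.8% of all JUN peaks. With 10 peaks these shares cannot be told apart.

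The strongest JUN sites were wider than the median peak. The 10 most enriched peaks, at 35.0 to 39.9-fold, lay on 7 chromosomes and were 882 to 1747 bp wide. All were among the 40 best by p. Of these 10, 6 were single peaks and 1 belonged to a cluster of at least 3, against 53.2% and 22.5% of all JUN peaks, and 10 peaks are too few to tell these shares apart. The first, on chromosome 7 (98047724 to 98048749), was best by both measures (39.9-fold, −log10 p 449), with its nearest JUN neighbour 64.4 kb away. The second lay on chromosome X (102911341 to 102912665, 38.2-fold), the sparsest chromosome, and carried YAP at 10.9-fold and TAZ at 10.7-fold. The third, the fourth and the fifth were found on chromosome 2 (233852705 to 233853813, 37.9-fold), chromosome 7 (128469321 to 128471067, 37.5-fold) and chromosome 17 (47049232 to 47050355, 37.1-fold).

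The sixth lay on chromosome 2 (11075613 to 11077003, 36.6-fold) and the seventh on chromosome 10 (11422340 to 11423973, 36.0-fold). The eighth, on chromosome 15 (96816729 to 96817674, 35.5-fold), was in a cluster of 5 with a neighbour 1029 bp away. The ninth and the tenth were found on chromosome 16 (1052392 to 1053457, 35.1-fold) and chromosome 2 (239051953 to 239052834, 35.0-fold). No peak of any other list overlapped the first, the fifth, the seventh and the ninth. YAP or TAZ was found at 5 of the 10, against 30.8% of all JUN peaks, again too few peaks to tell the shares apart. The enrichments of the other factors at these loci were at most 10.9 for YAP, 10.7 for TAZ and 8.27 for TEAD4. They are values of their own lists and were not scaled to that of JUN.

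Over the strongest 10% of the list (2456 peaks, at least 19.2-fold), YAP or TAZ overlapped 55.8% (53.8 to 57.8), against 19.0% (17.4 to 20.6) of the weakest 10% and 30.8% of all JUN peaks. The median widths of these sets were 948, 636 and 730 bp. With a YAP or TAZ summit required within 200 bp of the JUN summit, the shares were 53.7%, 17.2% and 29.1%. The strongest 10% was no more clustered than the list: 23.4% (21.7 to 25.1) lay in clusters of at least 3, against 23.9% (22.2 to 25.6) of the weakest 10% and 22.5% of all. Chosen by p, the strongest 10% had 29.1% in clusters. The weakest listed peaks by enrichment were found on chromosome 14 (50052741 to 50053415, 4.44-fold) and chromosome 2 (91763732 to 91764185, 4.45-fold).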

How the data were processed

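Chromatin was cross-linked, sonicated and immunoprecipitated, per the labels' protocols. The submitters' processing notes name Bowtie 0.12.7, CASAVA, SAMtools and MACS2 2.0.10, and build hg19. The list names carry an IDR (irreproducible discovery rate) of 0.01. Raw file names in the labels put JUN replicate 1 and mouse IgG 3 on 1 sequencing run, and JUN replicate 2 and mouse IgG 5 on another. The authors deposited a fold enrichment over IgG (a ratio) and a −log10 p-value for each peak. Ranks and medians of these were taken within a list. At some loci, chromosomes and bins, values of several lists are printed side by side, without being put on a common scale. Depth per sample is unknown. The meaning of the replicate tag in the JUN peak names is not stated in the labels.

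Python 3.11.15, numpy 2.4.6, pandas 2.3.3 and scipy 1.17.1 were used, and functions were tested on simulated data. Overlap means at least 1 bp. Peaks are not replicates, so no test was made. Members, definitions and loci were chosen with earlier results of these data known. The loci named are the 10 most enriched and the 10 widest peaks, the 10 clusters and 10 stretches with the most peaks (ties by summed enrichment), the 5 fullest windows of each size, the 5 longest empty intervals and extreme chromosomes. Further windows, the closest pair, the weakest peaks and single bins were named after seeing their values. Alternatives covered linkage, window size, width limits, overlap and ranking. Genes, motifs and sequences were not analysed here, since the tables used are on GRCh38.p14.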

Additional observations from a re-analysis of the deposited data

How the results depend on the processing

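Of 92 alternative values for 14 results, 61 moved by less than the counting interval of the value reported (counts, by at most 1.5 times). Of these 61, 46 came from leaving out 1 chromosome at a time, where all 46 values stayed. Of the other 46 values, 15 stayed and 31 moved further. Those 15 include merging overlapping peaks, which could change nothing because no JUN peak overlapped another. A reversal was defined only for relative density and for the ratios of widest over narrowest, and none was found. Leaving out each chromosome in turn kept the median distance between 35.3 and 36.9 kb and the share in clusters between 22.2% and 22.9%. With the stronger 50% of peaks, the median distance was 69.3 kb, the share in clusters 12.2%, and the relative density 1.64 on chromosome 17, 0.23 on chromosome X and 1.52 on chromosome 20. The share in clusters was 6.83% at 5 kb, 40.4% at 25 kb, 5.91% for clusters of at least 5, 7.38% at equal list length and 9.42% for peaks of at least 12-fold. Long stretches numbered 0 as defined, 29 from 250 kb and 100 with a linkage of 100 kb. The fullest window held 65 peaks at 2 Mb and 25 of at least 12-fold, by which chromosome X stood at 0.37. Widest over narrowest, the ratio of median enrichment was 1.55 with tails of 5%, 1.39 with 20% and 1.02 at middle enrichment. That last value is among the 31 that moved, but keeping only peaks of 10.7 to 12.9-fold held it near 1 beforehand. For −log10 p the ratios in the same order were 2.61, 2.12 and 1.53. YAP or TAZ overlapped 49.8%, 42.5% and 36.9% of the widest and, with tails of 5% and 20%, 11.3% and 17.02% of the narrowest, and lay within 200 bp of 38.3% of the widest. By p, the strongest 10% had YAP or TAZ at 61.0% and 29.1% in clusters. Peaks of at least 12-fold, the 100-kb linkage and the 250-kb length were added after seeing the data. Leaving out a replicate was not possible. No paired analysis was possible because there is 1 list per factor, with no values for single replicates. What depth limits is unknown here.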
